A study of Mus musculus with 2 samples.

Results

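Bone morphogenetic proteins (BMPs) are secreted ligands of the TGF-beta superfamily. They bind type II receptors such as BMPR2 together with type I receptors such as ALK1, the product of Acvrl1, and endoglin (Eng) is a co-receptor that presents ligand to ALK1 on endothelial cells. Receptor activation phosphorylates SMAD proteins that turn on target genes, among them Id1 and Id3, while the inhibitory SMADs encoded by Smad6 and Smad7 restrain the signal. In the vessel wall this pathway is known for keeping endothelial cells quiescent, and inherited loss of ENG or ACVRL1 causes vascular malformations.

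The 10 genes described here were chosen by their role in this pathway, from 32285 genes in the count matrices. They are the ligands Bmp6, Bmp2 and Bmp4, the receptors Eng, Acvrl1 and Bmpr2, the inhibitory SMADs Smad6 and Smad7, and the target genes Id1 and Id3. All 10 had UMIs (unique molecular identifiers, each standing for 1 captured RNA molecule) in both libraries, and all 10 passed the minimum of 100 UMIs over endothelial cells that was set for the counts over all genes.

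The data were 3' single-cell RNA sequencing of sorted live CD31+CD45- tumor endothelial cells (TECs) from YUMMER1.7 melanoma in female mice of 8 to 10 weeks, with 1 library pooled from 3 control mice and 1 pooled from 3 Dnmt1iECKO mice. The Dnmt1iECKO genotype was Cdh5CreERT2;Dnmt1fl/fl;ZsGreenlsl/lsl, in which tamoxifen activates Cre under the endothelial Cdh5 promoter to delete Dnmt1, the maintenance DNA methyltransferase. The labels give the control genotype as C57BL/6, while the study's methods describe its control mice as carrying the same CreERT2 and ZsGreen alleles without floxed Dnmt1. The labels place the tumors under the skin of the shoulder and the study's text places those of the single-cell experiment in the lung. With 1 library for each group no test between groups was possible, mice and groups cannot be told apart, and every interval given in brackets below is a 95% interval for counting error only.

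The control library held 9301 cells with 123830489 UMIs and the Dnmt1iECKO library 9522 cells with 141433493 UMIs, of which 7710 and 7798 cells were kept, and 29 cell barcodes occurred in both libraries. Endothelial cells, defined by at least 1 UMI of Cdh5 or Pecam1 and none of Ptprc, numbered 5499 and 2390. They were divided by pairs of genes into aerocytes (Ednrb and Car4; 1810 and 670 cells), general capillary cells (Kit and Npr3; 2610 and 955), vein cells (Slc6a2 and Selp; 188 and 211) and artery cells (Gja5 and Bmx; 72 and 74), and 819 and 480 cells met no gate. Of 6 further markers of each class, 6 were higher than in the other endothelial cells for aerocytes, general capillary cells and veins in both libraries. For arteries 5 of 6 were higher in each library, all but Sox17 in control and all but Dkk2 in Dnmt1iECKO. Levels are given as CPM, the UMIs of a gene per 1000000 UMIs of all genes in the same cells. The artery class of Dnmt1iECKO also had 2467 CPM of 6 summed lymphatic markers, compared with 829 in control, and 1585 of 7 fibroblast markers, compared with 680. The control artery class instead had more epithelial (5275 against 126), immune (777 against 53.6) and tumor markers (167 against 6.80), each summed over 7 genes. The part of these markers in the artery levels and library ratios below was not tested. Dnmt1, the deleted gene, had 50.5 and 24.7 CPM in aerocytes of control and Dnmt1iECKO, 50.7 and 29.7 in general capillary cells, 37.9 and 28.1 in veins and 61.4 and 25.5 in arteries. It was thus lower in all 4 classes of the library labelled Dnmt1iECKO. Without cells holding UMIs of Hmga2, described below, the artery log2 ratio was −0.40 (−1.27 to 0.46), an interval that held 0.

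Cells without Cdh5, Pecam1, Ptprc, Epcam and Hmga2 UMIs and with at least 3 pericyte or fibroblast markers gave 38 and 25 pericyte cells and 203 and 306 fibroblasts. The pericyte class was rich in smooth muscle genes, with 11872 and 10379 CPM over Acta2, Myh11, Tagln, Cnn1, Des and Actg2, against 4675 and 3849 over the 7 pericyte markers. Of these cells 11 of 38 in control and 1 of 25 in Dnmt1iECKO had no UMI of Myh11. T cells (329 and 1531), which passed the sort although it excluded CD45, served as the level of free RNA for endothelial genes. Levels are compared within a gene only.

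Promoter sequence was available for 6 of the 10 genes in the RefSeq table for GRCm38.p6. Those of Smad6 and Eng are printed because Smad6 is a textbook SMAD target that differed most of the 10 between artery and vein cells, and Eng is the co-receptor found in every endothelial class. For both genes the RefSeq start site was that of the GENCODE annotation. Each line runs 5' to 3' on the coding strand, with 250 bases before the start site and 10 after it, and capitals mark matches to the SMAD palindrome GTCTAGAC in Smad6 and to the ETS motif AGGAAG, on either strand, in Eng.
Smad6 (chr9:64022050-64022309, reverse strand): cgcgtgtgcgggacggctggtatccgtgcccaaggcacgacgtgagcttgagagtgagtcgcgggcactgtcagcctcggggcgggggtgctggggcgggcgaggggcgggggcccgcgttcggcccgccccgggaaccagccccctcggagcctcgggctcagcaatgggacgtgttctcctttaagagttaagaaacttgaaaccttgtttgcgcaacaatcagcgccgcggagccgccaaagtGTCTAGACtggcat
Eng (chr2:32646345-32646604, forward strand): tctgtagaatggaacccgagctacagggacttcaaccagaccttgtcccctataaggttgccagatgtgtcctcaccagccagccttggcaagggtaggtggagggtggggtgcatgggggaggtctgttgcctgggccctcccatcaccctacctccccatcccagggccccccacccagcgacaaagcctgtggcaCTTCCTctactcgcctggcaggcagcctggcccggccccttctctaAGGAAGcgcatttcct
The palindrome in Smad6 spans the start site. It was present on either strand in 70 of 32851 promoter windows of 300 bases (0.213%) and in 1 of the 6 members with a window. The 2 ETS matches in Eng lie before its start site, and 35.4% of windows held that motif. Among the 6, the windows of Bmp4, Bmpr2 and Id3 held it as well. The GC-rich SMAD element GGCGCC, also searched, was in 11.9% of windows and, among the 6, in Bmpr2. A match describes the letters only.

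Bmp6 (ENSMUSG00000039004, chromosome 13, 38345107 to 38500302, forward strand, GRCm38) had its highest level in general capillary cells. It had 700 CPM in control (691 to 709) and 715 in Dnmt1iECKO (700 to 730) in general capillary cells. The artery classes had 293 and 326, the vein classes 221 and 209, and the aerocytes 209 and 306. General capillary cells were therefore above every other class in both libraries. Against all other endothelial cells the log2 ratio was 1.90 (1.86 to 1.93) in control and 1.88 (1.83 to 1.93) in Dnmt1iECKO. Bmp6 was the only member at least 2-fold above the other endothelial cells in this class in both libraries, where 1.91% of 14056 genes were. With a gate that allowed no UMI of any other class's pair, the ratios were 0.92 and 1.29 and the call was lost in control. Vein and aerocyte levels in control, and artery and aerocyte levels in Dnmt1iECKO, differed by less than their counting intervals. Fibroblasts had 13.1 and 19.0, pericyte-class cells 8.33 (3 UMIs) and 0, where 3 UMIs would be 15.2, and T cells 1.03 and 1.01. The Txndc5 gene lies in antisense over part of Bmp6 and the counting of strand is not given in the sources used here.

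Within the aerocyte class Bmp6 followed the general capillary genes. Aerocytes with no UMI of Kit or Npr3 (1010 and 347 cells) had 51.4 CPM in control and 86.4 in Dnmt1iECKO, whereas aerocytes with at least 1 (800 and 323 cells) had 318 and 419. Vein cells with Ackr1, a marker of postcapillary venules (18 and 48 cells), had 129 and 76.6, and vein cells without it (170 and 163) had 236 and 266. Among clusters of endothelial cells formed without the 10 genes and the gate genes, Bmp6 was 1035 and 1065 in the cluster whose leading gene was Kit, which had general capillary markers, 951 and 1167 in the cluster led by Edn1 and 51.3 and 64.3 in the Lmntd1-led cluster, which had aerocyte markers. It was 39.3 and 12.4 in the lymphatic-like cluster. The genes with the profile most like Bmp6 over the 6 classes of both libraries (12 values, 13707 genes) were Ptprm (Pearson's r = 0.995), Ldb2 (0.992) and Prex1 (0.985), and these 12 values share 2 libraries.

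Bmp4 (ENSMUSG00000021835, chromosome 14, 46383520 to 46390669, reverse strand) had its highest levels in arteries, veins and stroma. It had 101 (83.7 to 121) and 74.0 (59.2 to 91.2) CPM in artery cells, 64.1 and 62.2 in vein cells, 34.1 and 33.9 in general capillary cells and 12.4 and 21.3 in aerocytes, each given for control and then Dnmt1iECKO. Fibroblasts had 82.3 and 77.8 and pericyte-class cells 94.4 (34 UMIs) and 60.6 (12 UMIs). In control the artery, pericyte and fibroblast levels differed by less than counting error, and in Dnmt1iECKO each neighbouring pair from fibroblast through artery, vein and pericyte to general capillary cells did. T cells had 0.514 and 0.530. The log2 ratio to the other endothelial cells was 1.89 and 1.38 in arteries and 1.27 and 1.26 in veins. Bmp4 was the only member at least 2-fold above in both libraries in arteries, where 2.96% of genes were, and in veins, where 2.55% were. Without cells holding Hmga2 UMIs its ratio in Dnmt1iECKO veins was 0.96, just under 2-fold. Artery cells also had the highest summed fibroblast markers of the 4 classes in both libraries (680 and 1585, against 205 to 264 and 177 to 794 in the others), and their part in the Bmp4 level was not tested. The genes with the most similar profiles were Il13ra1 (r = 0.945), Emp3 (0.936) and Rpl24 (0.933).

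**Figure D1:**
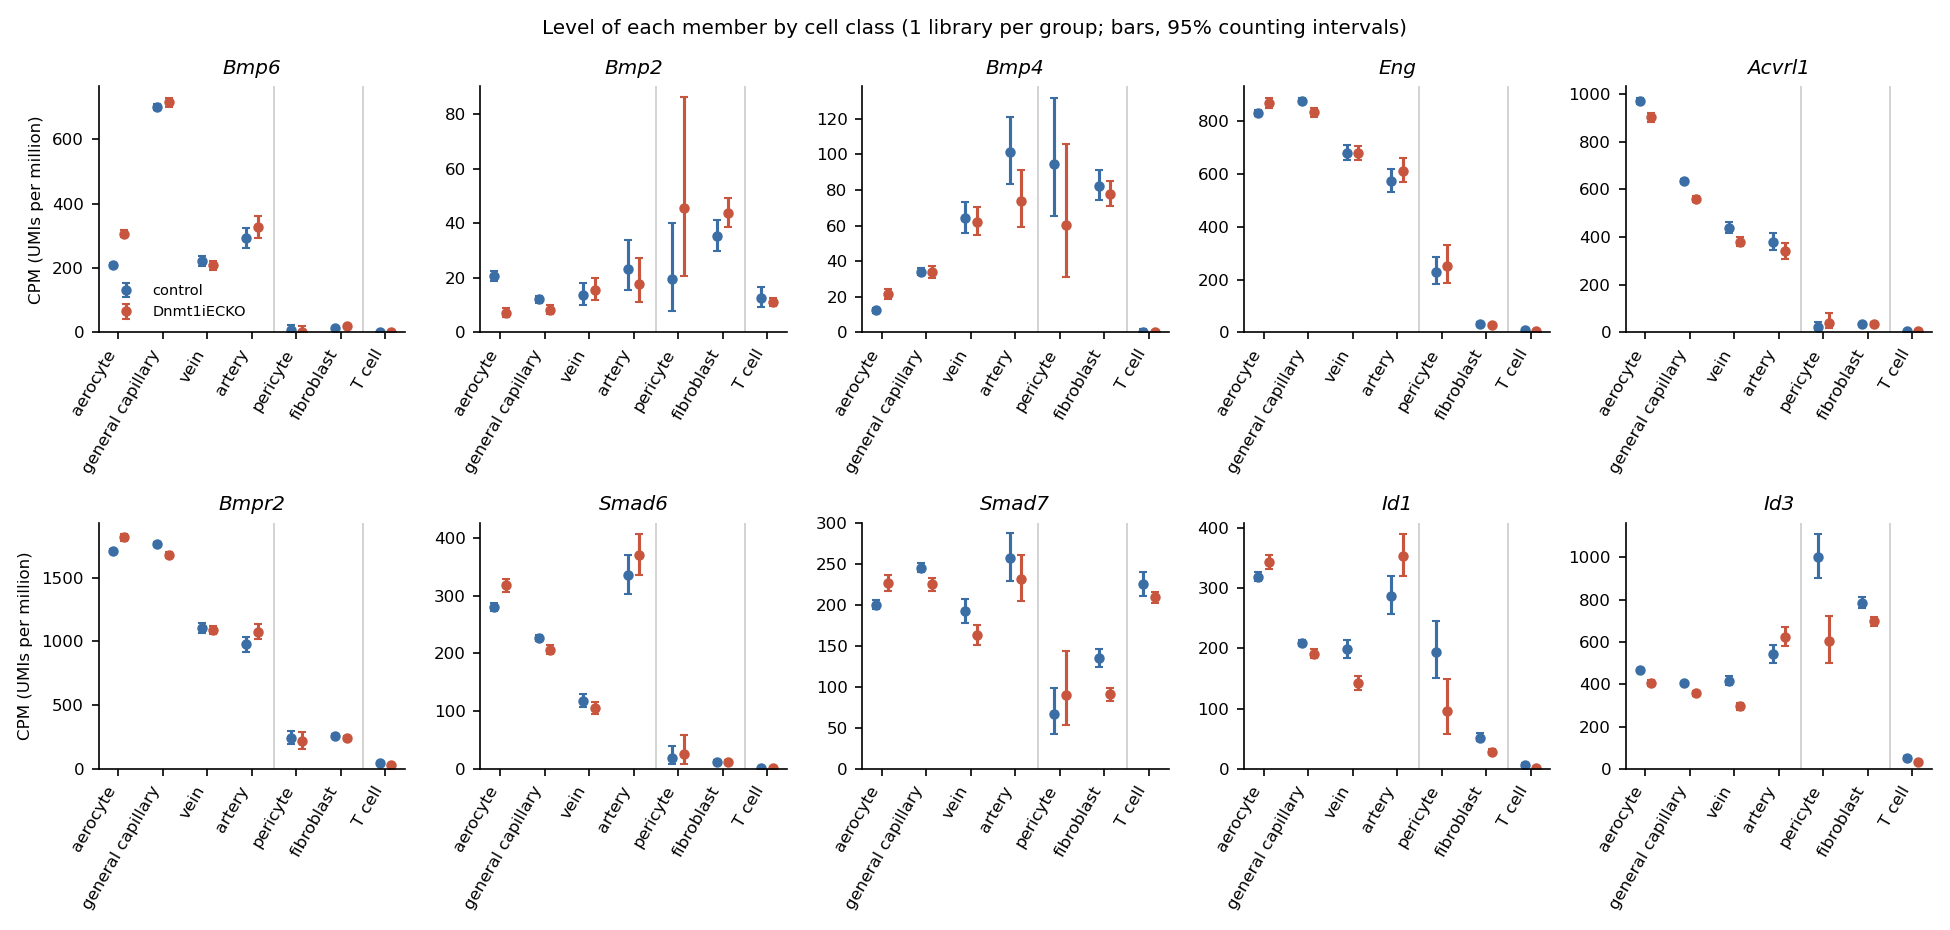
Level of each of the 10 genes (CPM, linear axis from 0) in 4 endothelial classes, pericyte-class cells, fibroblasts and T cells, with control in blue and Dnmt1iECKO in red. Points are 1 library each and bars 95% counting intervals; Bmp6 peaks in general capillary cells at 700 and 715, and the T-cell level of Smad7, 225 and 209, lies in the range of its endothelial classes.

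Bmp2 (ENSMUSG00000027358, chromosome 2, 133552159 to 133562885, forward strand) was scarce in all 4 endothelial classes. Its levels for control and Dnmt1iECKO were 20.8 and 7.21 CPM in aerocytes, 12.1 and 8.26 in general capillary cells, 13.7 and 15.6 in veins and 23.4 and 17.9 in arteries. T cells had 12.6 and 11.0, and only control aerocytes had a counting interval (19.0 to 22.7) wholly above that of the T cells of their library. After thinning each cell to 2000 UMIs, 1.05% and 1.26% of aerocytes and 0.617% and 0.263% of T cells had a Bmp2 UMI. These shares were 1.3% and 1.2% in general capillary cells, 2.7% and 1.4% in veins and 4.2% and 2.7% in arteries. Before thinning, Bmp2 was found in 4.60% and 6.18% of general capillary cells, 10.6% and 13.3% of vein cells and 13.9% and 18.9% of artery cells. For T cells this was 5 of 329 and 21 of 1531 (1.52% and 1.37%), so by share of cells these classes were above T cells. Fibroblasts, with 35.2 and 43.6 CPM, were above T cells in both libraries.

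Most Bmp2 in the endothelial gate was in cells with Hmga2, a chromatin protein of embryonic and tumor cells. Such cells were 220 of 5499 endothelial cells in control and 133 of 2390 in Dnmt1iECKO, and they held 83.7% and 88.7% of the Bmp2 UMIs. Cells of any class with at least 5 Hmga2 UMIs (188 and 227 cells) had 419 and 339 CPM of Bmp2, and the melanocyte markers Sox10, Mlana, Dct and Tyr had 0 or 1 UMI each there, while Pmel had 7 and 8. Without cells holding Hmga2 UMIs, Bmp2 over all endothelial cells fell from 40.2 to 7.38 in control and from 57.7 to 8.29 in Dnmt1iECKO. Bmp2 was at least 2-fold below the other endothelial cells in aerocytes, general capillary cells and veins of both libraries, where 10.7%, 10.0% and 8.54% of genes were. In arteries no member was, where 5.84% of genes were. None of these 3 calls was left without Hmga2-bearing cells. The log2 ratios of control and Dnmt1iECKO were then −0.85 and −1.39 in aerocytes, 0.10 and −0.20 in general capillary cells, 0.84 and 0.85 in veins and 1.16 and 1.23 in arteries, so that Bmp2 was at least 2-fold above the other cells in arteries of both libraries. These artery ratios rest on few UMIs. All artery cells held 27 Bmp2 UMIs in control and 21 in Dnmt1iECKO, of which 11 and 2 were in the cells with Hmga2 that were removed. The genes most like Bmp2 in profile were Cd320 (r = 0.933), Tpbg (0.928) and Matn2 (0.926).

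**Figure D2:**
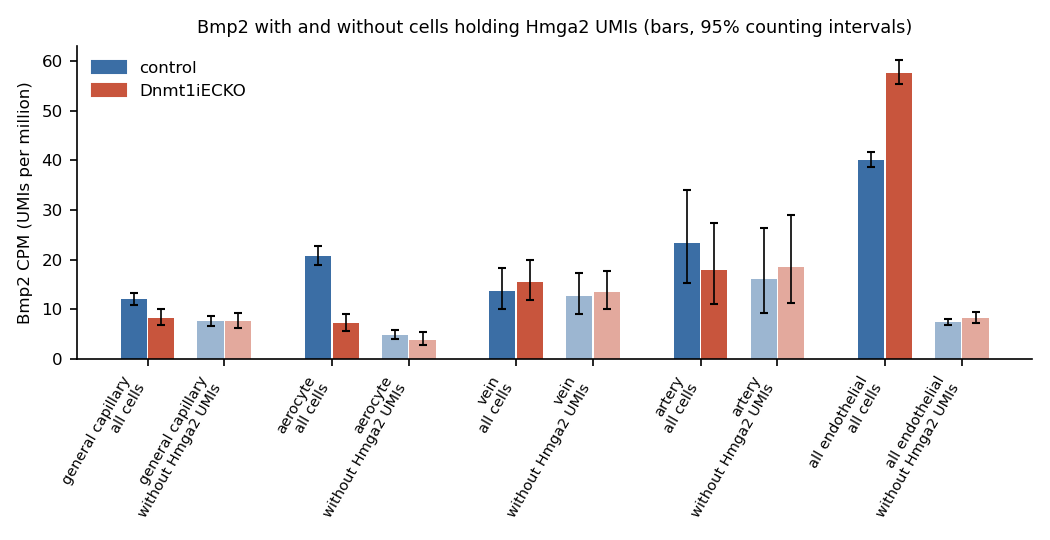
Bmp2 level (CPM, bars from 0, 95% counting intervals) in each endothelial class and over all endothelial cells, with all cells (full colour) and without cells holding Hmga2 UMIs (pale). The control aerocyte bar drops from 20.8 to 4.84 and the all-endothelial bars from 40.2 and 57.7 to 7.38 and 8.29.

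The receptors were high in every endothelial class. Eng (ENSMUSG00000026814, chromosome 2, 32646595 to 32682669, forward strand) had 832 and 871 CPM in aerocytes of control and Dnmt1iECKO, 879 and 834 in general capillary cells, 681 and 680 in veins and 574 and 614 in arteries. Its highest and lowest endothelial class thus differed by less than 2-fold in both libraries. Pericyte-class cells had 230 (184 to 286) and 253 (187 to 333), whereas fibroblasts had 32.3 and 26.7 and T cells 10.3 and 5.19. Markers of endothelial classes were also found in the pericyte class, where Cdh5 and Pecam1 were at 0 by definition: the 8 summed aerocyte markers were 1494 and 1439 CPM, the vein markers 980 and 889, the artery markers 364 and 177 and the general capillary markers 236 and 126. Their part in the Eng level was not tested. The genes most like Eng were Arap3 (r = 0.992), Epas1 (0.992) and Arhgap31 (0.990).

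Acvrl1 (ENSMUSG00000000530, chromosome 15, 101128522 to 101145336, forward strand), which encodes ALK1, was graded across the classes in the same order in both libraries. It had 973 and 903 CPM in aerocytes, 637 and 561 in general capillary cells, 440 and 381 in veins and 381 and 341 in arteries. All neighbouring classes in this order differed by more than counting error. The aerocyte log2 ratio to other endothelial cells was 0.94 (0.92 to 0.97) in control and 1.36 (1.32 to 1.40) in Dnmt1iECKO, so it passed 2-fold in 1 library only, and no member did so in both, where 3.10% of genes did. With clusters in place of gates the ratios were 1.20 and 1.55, and against the other 3 gated classes they were 0.67 and 0.83. Pericyte-class cells and fibroblasts were between 22.2 and 40.4.

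Bmpr2 (ENSMUSG00000067336, chromosome 1, 59763400 to 59879014, forward strand) had 1708 and 1816 CPM in aerocytes, 1766 and 1677 in general capillary cells, 1106 and 1092 in veins and 977 and 1075 in arteries. The capillary classes were above the vein and artery classes in both libraries, but which capillary class was higher differed between libraries. Unlike Eng, Bmpr2 was equally present in pericyte-class cells (244 and 217) and fibroblasts (258 and 242), which differed by less than counting error.

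The inhibitory SMADs were not alike. Smad6 (ENSMUSG00000036867, chromosome 9, 63953076 to 64022059, reverse strand) had 336 and 370 CPM in arteries, 281 and 318 in aerocytes, 227 and 206 in general capillary cells and 118 and 105 in veins. This order was the same in both libraries and each neighbouring pair differed by more than counting error. Stroma had 12.4 to 25.3 and T cells 2.06 and 1.96. Its artery log2 ratio to other endothelial cells was 0.65 in control and 1.06 in Dnmt1iECKO, and with clusters in place of gates it passed 2-fold in both, at 1.46 and 1.65. After thinning, 52.1% (39.9 to 64.1) and 46.6% (34.8 to 58.6) of artery cells and 17.7% (12.5 to 24.0) and 22.1% (16.7 to 28.4) of vein cells had a Smad6 UMI. Artery and vein cells thus did not overlap in their intervals in either library. Smad7 (ENSMUSG00000025880) had 201 and 227 in aerocytes, 246 and 226 in general capillary cells, 193 and 163 in veins and 258 and 232 in arteries. T cells had 225 and 209, within the range of the endothelial classes in both libraries.

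**Figure D3:**
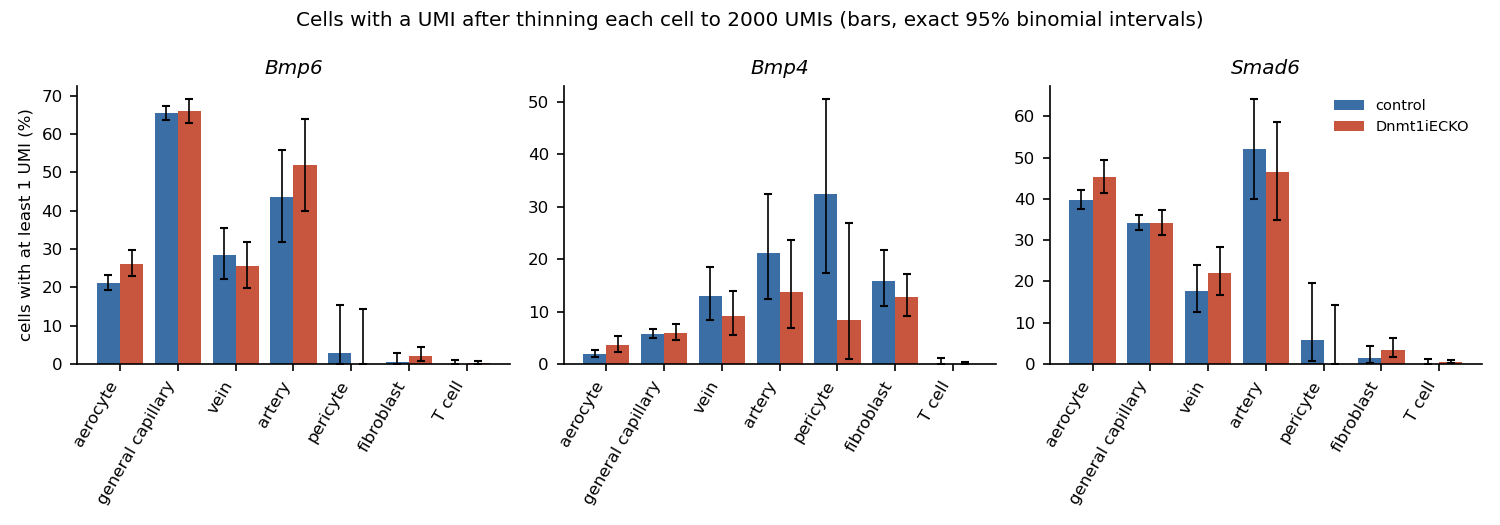
Cells (%) with at least 1 UMI of Bmp6, Bmp4 or Smad6 after each cell was thinned to 2000 UMIs, by class, with control in blue and Dnmt1iECKO in red. Bars start at 0 and carry exact 95% binomial intervals; Bmp6 was found in 65.5% and 66.1% of general capillary cells and in 21.1% and 26.2% of aerocytes.

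Among the 4 endothelial classes the shares gave the same order as the levels for Bmp6 in both libraries. After thinning, 65.5% (63.7 to 67.4) of control and 66.1% (63.0 to 69.1) of Dnmt1iECKO general capillary cells had a Bmp6 UMI, and 47.6% of control aerocytes had one before thinning but 21.1% after it. In T cells 0 of 324 control cells had a thinned Bmp6 UMI, and a count of 0 allows up to 0.926% of cells with a UMI (3 cells of 324), while 0.263% of Dnmt1iECKO T cells had one. For Bmp4 the share was 21.1% (12.3 to 32.4) and 13.7% (6.77 to 23.8) in arteries and 1.97% and 3.61% in aerocytes. Of the 10 genes, 8 had their highest thinned share in the same endothelial class in both libraries.

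The target genes differed in where they were expressed outside endothelium. Id1 (ENSMUSG00000042745, chromosome 2, 152736251 to 152737410, forward strand) had 319 and 343 CPM in aerocytes, 287 and 354 in arteries, 208 and 191 in general capillary cells and 198 and 142 in veins. Aerocyte and artery levels differed by less than counting error in both libraries. Pericyte-class cells had 194 and 96.0, fibroblasts 52.0 and 28.4. Id3 (ENSMUSG00000007872, chromosome 4, 136143497 to 136145755, forward strand) was instead highest outside endothelium in control, with 1002 (902 to 1111) in pericyte-class cells and 784 in fibroblasts, and 606 and 698 in Dnmt1iECKO. Among endothelial classes arteries led with 543 and 624, followed by aerocytes with 466 and 406. Of the 4 endothelial classes, Id1 and Id3 were thus both higher in arteries and aerocytes than in general capillary and vein cells, as Smad6 was. The aerocyte excess of Id3 over the other endothelial cells was small, with log2 ratios of 0.20 and 0.15, against 0.75 and 1.17 for Id1.

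A cluster led by Ubd and Cxcl9, interferon-induced genes, held 169 control and 120 Dnmt1iECKO endothelial cells and was low in targets and inhibitory SMADs. Its levels in CPM were 67.9 and 38.0 of Smad6, 138 and 79.2 of Id1, 117 and 60.6 of Smad7, 258 and 196 of Id3 and 882 and 756 of Bmpr2. A cluster led by Ifit1, another interferon-induced gene (708 and 269 cells), had 195 and 196 of Smad6, 223 and 208 of Id1, 227 and 207 of Smad7, 324 and 279 of Id3 and 1736 and 1688 of Bmpr2. The lymphatic-like cluster (35 and 16 cells) had 224 and 261 of Eng but 56.4 and 24.8 of Acvrl1. Clusters were formed from these same cells, so these are descriptions.

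Between libraries and over all endothelial cells, none of the 10 was at least 1.5-fold higher in Dnmt1iECKO, where 8.47% of 14056 genes were, and none at least 1.5-fold lower, where 2.26% were. The log2 ratios of 8 members were below 0, from −0.42 for Acvrl1 to −0.15 for Smad7, and the median of the 10 was −0.20, beside −0.00 over all genes tested. Bmp2 was 0.52 and Bmp4 0.07, so 2 of 10 were higher by any amount, beside 49.6% of genes. With the classes, ungated cells included, weighted by their control shares, Acvrl1 became −0.17, Eng −0.04 (from −0.23), Bmpr2 −0.03 (from −0.26), Smad6 −0.01 (from −0.24) and Id1 −0.04 (from −0.21). Bmp6 turned from −0.18 to 0.10 and Bmp2 from 0.52 to −0.17. Aerocytes were 32.9% of control and 28.0% of Dnmt1iECKO endothelial cells, general capillary cells 47.5% and 40.0%, veins 3.42% and 8.83% and arteries 1.31% and 3.10%. Cells that met no gate were 14.9% and 20.1%. They held 10980738 of 72871357 endothelial UMIs in control and 10131048 of 38022256 in Dnmt1iECKO. The part of each class in the change with weighting was not tested.

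**Figure D4:**
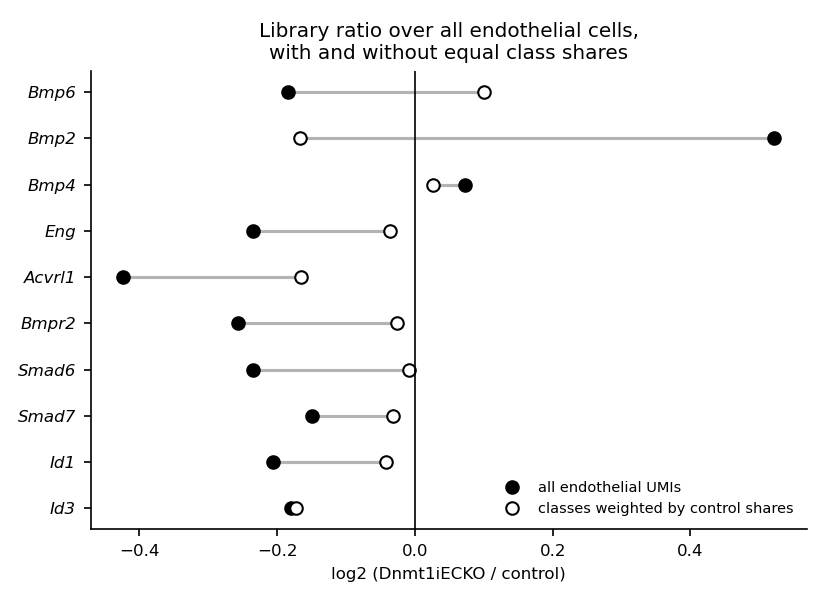
Log2 ratio of Dnmt1iECKO to control over all endothelial cells for each of the 10 genes, from all endothelial UMIs (filled) and with classes weighted by their control shares (open). Open points lie nearer 0 than filled points for every gene, and those of Bmp6 and Bmp2 are on the other side of 0.

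Within classes, Acvrl1 was lower in Dnmt1iECKO in all 4, with log2 ratios of −0.11 (−0.14 to −0.07) in aerocytes, −0.19 (−0.22 to −0.15) in general capillary cells, −0.21 (−0.31 to −0.10) in veins and −0.16 (−0.36 to 0.04) in arteries. The artery interval held 0. It was the only member on the same side of 0 in all 4 classes, but its aerocyte ratio was 0.05 with the gate that allowed no UMI of another pair and 0.03 (−0.03 to 0.08) in aerocytes without Kit or Npr3 UMIs, and its artery ratio was 0.09 with doublets removed at 0.8% per 1000 cells. By any amount, 7 of 10 members were higher in Dnmt1iECKO in aerocytes (49.3% of genes), 1 in general capillary cells (48.1%), 1 in veins (50.8%) and 6 in arteries (49.3%). In general capillary cells 9 of 10 members were lower in Dnmt1iECKO, by log2 ratios of −0.01 to −0.55, and Bmp6 was 0.03 (−0.00 to 0.07). No member was 1.5-fold apart there, where 6.14% of genes were higher and 7.38% lower.

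In aerocytes the ligands differed most. Bmp4 was 12.4 (298 UMIs) in control and 21.3 (207 UMIs) in Dnmt1iECKO, a log2 ratio of 0.78 (0.52 to 1.04), and was the only member at least 1.5-fold higher, where 7.25% of genes were. It fell under that fold with clusters in place of gates (0.57) and with the gate on thinned cells (0.56). Bmp6 was 209 and 306, a log2 ratio of 0.55 (0.48 to 0.62) or 1.46-fold, just under that fold. In aerocytes without Kit or Npr3 UMIs the Bmp6 ratio was 0.75 (0.53 to 0.96), and in those with them 0.40 (0.33 to 0.47). The 8 summed aerocyte markers were 9698 in control and 7597 in Dnmt1iECKO aerocytes, and Kit, a gate gene of general capillary cells, had 94.7 and 139. Their part in the Bmp6 and Bmp4 ratios was not tested. Bmp2 was the only member at least 1.5-fold lower, at −1.53 (−1.91 to −1.16), where 7.09% of genes were. Of its 499 control UMIs in aerocytes, 389 were in 46 cells with Hmga2, and without Hmga2-bearing cells the ratio was −0.32 (−0.91 to 0.25), which held 0.

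**Figure D5:**
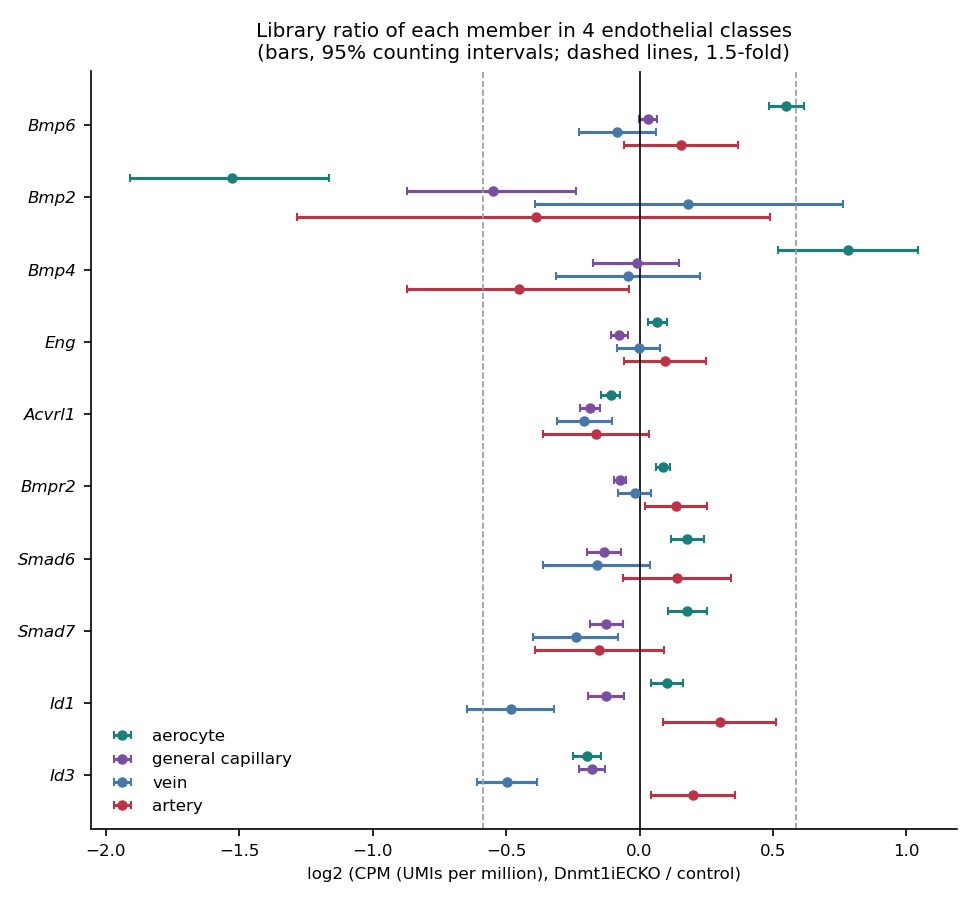
Log2 ratio of Dnmt1iECKO to control for each of the 10 genes in aerocytes, general capillary, vein and artery cells, with 95% counting intervals and dashed lines at 1.5-fold. Bmp4 (0.78) and Bmp2 (−1.53) in aerocytes lie past the lines, and Id1 and Id3 lie below 0 in veins (−0.48 and −0.50) and above 0 in arteries (0.30 and 0.20).

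In veins and arteries Id1 and Id3 had ratios of opposite sign. In veins Id1 was 198 in control and 142 in Dnmt1iECKO, a log2 ratio of −0.48 (−0.65 to −0.32), and Id3 was 418 and 296, −0.50 (−0.61 to −0.38). In arteries Id1 was 287 and 354, 0.30 (0.09 to 0.51), and Id3 543 and 624, 0.20 (0.04 to 0.36). Over 14 alternative settings these artery ratios ranged from −0.37 to 0.76 for Id1 and from −0.02 to 0.76 for Id3. No member passed 1.5-fold in either class, where 9.11% of genes were higher and 6.28% lower in veins and 13.5% higher and 13.4% lower in arteries. Bmp4 in arteries was −0.45 and ranged from −1.44 to −0.31 over 14 alternative settings. It was at least 1.5-fold lower in several of them, among them clusters in place of gates and the removal of Hmga2-bearing cells. A list of 13 genes induced by tissue dissociation had 1 of 13 higher in Dnmt1iECKO veins, with a median log2 ratio of −0.12, and 12 of 13 higher in Dnmt1iECKO arteries, with a median of 0.39. Their part in the Id1 and Id3 ratios was not tested. In vein cells without Ackr1 the ratios were −0.30 for Id1 and −0.47 for Id3, and in the few with Ackr1 −0.84 and 0.53. In those few, Dnmt1 itself was higher in the library labelled Dnmt1iECKO (42.4 against 19.4 CPM, 52 and 9 UMIs). Without Hmga2-bearing cells, of which the artery classes held 1 and 3, the artery ratios were 0.19 and 0.10 with intervals that held 0.

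Id1 was also lower in Dnmt1iECKO outside endothelium. It was 52.0 and 28.4 CPM in fibroblasts, a log2 ratio of −0.88 (−1.17 to −0.58), and 194 and 96.0 in pericyte-class cells, −1.02 (−1.83 to −0.27). Id3 was −0.17 (−0.23 to −0.10) in fibroblasts and −0.73 (−1.04 to −0.42) in pericyte-class cells. Smad7 was −0.57 (−0.74 to −0.40) in fibroblasts. In T cells Id1 was −1.57 (−2.30 to −0.83), at 6.94 and 2.33 CPM, and Id3 −0.70 (−0.93 to −0.46). The shares of T cells with a UMI were not lower. Id1 was found in 6 of 329 control and 33 of 1531 Dnmt1iECKO T cells. For Id3 the share was 9.73% in control and 15.7% in Dnmt1iECKO before thinning, and 1.85% and 4.28% after it.

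A wider list of 63 BMP and TGF-beta pathway genes was read the same way. Over all endothelial cells 10 of 17 further ligands, 12 of 13 receptors, 8 of 8 SMADs and SMURFs, 11 of 15 inhibitors and 9 of 10 targets had at least 100 UMIs. In Dnmt1iECKO 2 ligands (Bmp5 and Gdf10), 2 receptors (Rgma and Neo1), Smad3, 6 inhibitors (Chrdl1, Grem1, Fst, Bmper, Mgp and Htra1) and the target Hey2 were at least 1.5-fold higher, and the receptor Bmpr1b was the only one at least 1.5-fold lower. These are 12 and 1 of 50 genes, beside 8.47% and 2.26% of all genes. The median log2 ratio of the inhibitors was 0.59, the highest of the 5 lists, and 10 of 11 were higher by any amount, beside 49.6% of all genes. Within classes the inhibitor median was 0.20 in aerocytes, 0.24 in general capillary cells, 1.02 in veins and −0.12 in arteries. Grem1 was at least 1.5-fold lower in aerocytes, and Fst was so in general capillary cells and in arteries. The 7 summed fibroblast markers went from 228 to 794 CPM in veins.

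Several of the inhibitors were higher in fibroblasts or in Hmga2-bearing cells than over endothelial cells. Mgp, a matrix protein that binds BMPs, had 1150 and 1737 CPM over endothelial cells and 22843 and 19092 in fibroblasts. Fst, which traps activins and BMPs, had 12.9 and 27.9 over endothelial cells and 206 and 209 in fibroblasts. Grem1, a secreted BMP antagonist, had 21.2 and 34.6 over endothelial cells and 254 and 202 in cells with at least 5 Hmga2 UMIs. Without Hmga2-bearing cells the log2 ratio of Grem1 was 0.11 and those of Htra1, Rgma and Mgp were 0.34, 0.42 and 0.47, all under 1.5-fold. The ratios of Fst, Chrdl1, Bmper, Neo1, Smad3, Bmp5, Gdf10 and Hey2 were 0.70 to 1.09. The 7 summed fibroblast markers over endothelial cells were 639 in control and 955 in Dnmt1iECKO, and their part in these ratios was not tested.

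By class, 2 of 9 targets were at least 2-fold above the other endothelial cells in general capillary cells of both libraries, and no other of the 50 genes was, beside 1.91% of all genes. These were the transcription factors Hey1 (log2 ratios of 1.75 and 1.53) and Msx1 (1.24 and 1.17). In veins Tgfb2 (2.16 and 1.47) and Smad3, which transduces TGF-beta rather than BMP signals (1.00 and 1.27), passed, beside 2.55% of all genes. In arteries the ligands Bmp3 (1.78 and 1.45) and Bmp8a (1.78 and 1.83), the type I receptor Bmpr1b (1.89 and 3.46), the antagonist Chrdl1 (2.13 and 2.69) and the targets Atoh8 (2.30 and 1.82), Hey1 (1.48 and 1.60) and Hey2 (3.63 and 2.71) passed, 7 of 50 beside 2.96% of all genes. Hey1 was also among the 8 artery markers. In aerocytes none of the wider list passed upward, beside 3.10% of all genes. Downward, 14 of the 50 were at least 2-fold below the other endothelial cells in aerocytes of both libraries (10.7% of all genes), among them Inhba, Tgfb2, Bmpr1a, Neo1, Smad3 and Mgp. There were 14 in general capillary cells (10.0%), 8 in veins (8.54%) and 1, Gdf10, in arteries (5.84%). The other endothelial cells of these comparisons include those that met no gate. In these ungated cells the 7 summed fibroblast markers had 2849 and 2471 CPM and the 7 epithelial markers 13711 and 8026. Their part in the downward counts was not tested.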

How the data were processed

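The authors aligned the reads with Cell Ranger to mm10 (named in the submitters' processing notes) and deposited filtered matrices of raw UMI counts, 1 per library. Cells with at least 500 genes and at most 10% mitochondrial counts were kept, and doublets were removed with Scrublet (scanpy 1.11.5) at an expected rate of 0.4% per 1000 cells. Cells joined the class whose gate pair had at least 2 UMIs and more than any other pair. UMIs were summed by library and class, with exact Poisson, conditional binomial and Clopper-Pearson intervals (scipy 1.17.1), checked on simulated counts. A gene was counted over all genes with at least 100 UMIs over endothelial cells, or 20 within a class, and called at 2-fold between classes in both libraries or 1.5-fold between libraries. Genes of the wider list were named when called, and the 3 closest profiles were named for Bmp6, Bmp2, Bmp4 and Eng. Members, lists and tests were chosen with earlier results of these data known. The exclusive gate, the removal of Hmga2-bearing cells, the reference of 3 gated classes and the cells not thinned were chosen after seeing the data. The values of 1 gene of the wider list are not reported here.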

Additional observations from a re-analysis of the deposited data

Results flagged for a closer look

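For 3 of the 10 genes the Dnmt1iECKO to control ratio lay on opposite sides of 0 in 2 endothelial classes, with counting intervals that excluded 0 in both and ratios at least 1.5-fold apart. The share of all genes that meet this rule was not counted, so the 3 are a description and not a trait of these genes. Eng, Bmpr2, Smad6 and Smad7 also had ratios on opposite sides of 0, in aerocytes and general capillary cells, but less than 1.5-fold apart. None of these differences could be tested, because each group was 1 library. For Bmp4 the aerocyte log2 ratio exceeded the artery ratio by 1.23. For Id1 the aerocyte ratio exceeded the vein ratio by 0.59 and the artery ratio exceeded it by 0.78. For Id3 the artery ratio exceeded the vein ratio by 0.70. Without Hmga2-bearing cells, 1 of the control and 3 of the Dnmt1iECKO artery cells, the artery intervals of Id1 and Id3 held 0, while that of Bmp4 did not.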

How the results depend on the processing

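No paired analysis was possible because each group was 1 library. Counts of members are given with the value of the main setting first. With both gate genes required, aerocytes had 1 member at least 2-fold above (from 0; Acvrl1) and arteries 2 (from 1; Bmp4 and Smad6), and of 40 member and class pairs 2 were at least 1.5-fold higher (from 1) and 4 lower (from 1). With at least 4 gate UMIs these were 1 in aerocytes and 2 lower pairs. With the gate on thinned cells they were 1 in aerocytes, 2 in arteries, 0 higher and 4 lower pairs, and with clusters 1, 2, 2 (Bmp2 and Id1 in arteries) and 3. Bmp4 in aerocytes was no longer among the higher pairs in either. Without Epcam, Cspg4, Myh11 and Hmga2 UMIs arteries had 2, and without Hmga2 alone arteries had 2 and veins 0 (from 1). Over all endothelial cells 1 member (Bmp2) was higher with a mitochondrial limit of 5% and with no doublet removal, which also gave 2 higher pairs. Doublets at 0.8% gave 2 higher and 2 lower pairs, and the mean over cells 3 lower. The exclusive gate gave 6 higher and 6 lower pairs and 0 members above in general capillary cells (from 1), where Bmp6 was 0.92 and 1.29. Median-of-ratios scaling gave 1 in aerocytes (Acvrl1). Without thinning 5 members, not 8, had their highest share in the same class. Bmp2 turned from below to above the other endothelial cells as follows: without Hmga2 in control general capillary cells (0.10), veins (0.84 and 0.85) and arteries (1.16 and 1.23); without the 4 genes in veins (0.94 and 1.08) and arteries (1.25 and 1.15); against 3 gated classes in control aerocytes (0.73), Dnmt1iECKO veins (0.91) and arteries (0.58 and 0.99). The cause of each of these shifts was not tested. Id1 and Id3 in veins stayed below 0 in all 14 alternatives, at −0.92 to −0.31 and −0.85 to −0.43. In arteries each was above 0 in 13 of 14, at −0.37 to 0.76 and −0.02 to 0.76. With Cdh5 or Pecam1 allowed, Bmp6 in pericyte-class cells was 418 and 355 CPM. A minimum of 20 UMIs raised the share of genes at least 1.5-fold lower over all endothelial cells to 4.56%.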
